A study of Mus musculus with 35 samples.

Results

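Hemogenic endothelium (HE) at embryonic day E9.5 was compared with HE at E8.5 by ATAC-seq, using the 4 HE libraries of each day and every peak of the count table. These 8 libraries were taken, by their titles, out of 35 in the series, and 67131 of the 76018 peaks in the table had enough counts to be tested. ATAC-seq cuts open chromatin with a transposase that leaves sequencing adapters behind, so the read count of a peak rises with its accessibility. Each library came from a pool of sorted mouse embryo cells, and every sample, controls included, has the genotype 23GFP transgenic. As background, that line carries a GFP reporter driven by the +23 enhancer of Runx1. Reads at that enhancer can come from the reporter copies or from the endogenous locus, which cannot be told apart. The tissue label of both days reads E8.5 PAS+VU, so that samples titled E9.5 were placed by their title. Endothelial cells (EC) of E8.5 and E9.5, 4 libraries each of the same genotype and tissue label, served as the comparison. E10.5 HE, EC, pre-HSC I and pre-HSC II, labelled AGM+VU, and E9.5 pro-HSC/HPC gave levels only; pro-HSC, pre-HSC and HPC are precursors of hematopoietic stem cells and hematopoietic progenitors. The series text calls the replicates biological. The sources used here do not say whether pools came from separate litters, and p-values then cover only the spread among these pools.

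Hemogenic endothelium is the minority of embryonic endothelial cells that turns into blood. The transcription factor Runx1 is needed for this endothelial-to-hematopoietic transition, its targets Gfi1 and Gfi1b silence endothelial genes, and Gata2, Tal1, Lyl1, Lmo2 and the ETS factors Erg and Fli1 act together at blood and endothelial enhancers. Blood flow, read out by Klf2, and Notch and BMP signalling act on the arterial wall in which HE lies.

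The 8 libraries differed in depth along the main axis of variation. Total counts in peaks were 1634087 and 1502905 in E8.5 HE libraries 1 and 2 and 5657077 and 5733154 in libraries 3 and 4. At E9.5 they were 7415315 and 6665147 in libraries 1 and 2 and 1839721 and 2876084 in libraries 3 and 4. The first principal component of log2 values held 37.1% of the variance and separated the days, with E8.5 at negative and E9.5 at positive scores. Within each day the 2 shallower libraries lay farther out: −127.6 and −133.4 against −38.9 and −35.2 at E8.5, and 119.1 and 111.6 against 50.8 and 53.6 at E9.5. The part of depth in the results was not tested, and counts of calls are therefore also given within the deeper and within the shallower libraries.

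From E8.5 to E9.5, 601 peaks gained and 832 lost accessibility in HE. These are 0.895% and 1.24% of the peaks tested, 2.13% in all (1433 peaks), at a Benjamini-Hochberg adjusted p under 0.05 in edgeR's quasi-likelihood test; all adjusted p below come from this test over all tested peaks unless another is named. For the peaks that rose, the median of the group means went from 4.01 CPM at E8.5 to 16.7 CPM at E9.5 (median log2 fold change 1.96), where CPM are counts in peaks per 1e6 counts of the library, scaled by the TMM method. For the peaks that fell it went from 25.7 to 7.28 CPM (median log2 fold change −1.74). All tested peaks had a median log2 fold change of −0.02. In 579 of the rising and 819 of the falling peaks the 4 libraries of one day did not overlap those of the other, while over all tested peaks 7.35% were higher and 8.80% lower without overlap. Because cells were pooled, a larger share of cells with an open site and a more open site in each cell cannot be told apart.

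The number of called peaks depended on the libraries and the fit. Leaving out 1 HE library at a time gave between 430 calls (without E9.5 library 4) and 1006 calls (without E8.5 library 3). There were 547 and 519 calls without E8.5 libraries 1 and 2, and 829, 774 and 696 without E9.5 libraries 1, 2 and 3. Without both shallow E8.5 libraries there were 43 higher and 51 lower peaks. A fit of only the 8 HE libraries, which does not share the spread of the other groups, gave 3487 higher and 3619 lower peaks, 7106 in all. The 4 shallower libraries alone gave 273 higher and 246 lower peaks, of which 341 were among the 1433. The 4 deeper libraries alone gave 0 calls in edgeR. In that fit 2882 of 72405 tested peaks had an unadjusted p under 0.05, against 10343 of 67131 with all libraries. If nothing changed, about 1 in 20 tested peaks would reach that p, which is more than these 2882. The median log2 fold change of the rising peaks was 1.77 within the deeper and 2.09 within the shallower libraries, and that of the falling peaks −1.33 and −2.22. These libraries also chose the peaks, so a shared sign is no independent support. DESeq2 on all libraries called 1066 higher and 2431 lower peaks, so that 30.5% of its calls were higher against 41.9% in edgeR, and edgeR with RLE size factors gave 30.6%. Those scalings moved the median of all tested peaks by −0.11 and −0.10 (log2).

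**Figure D1:**
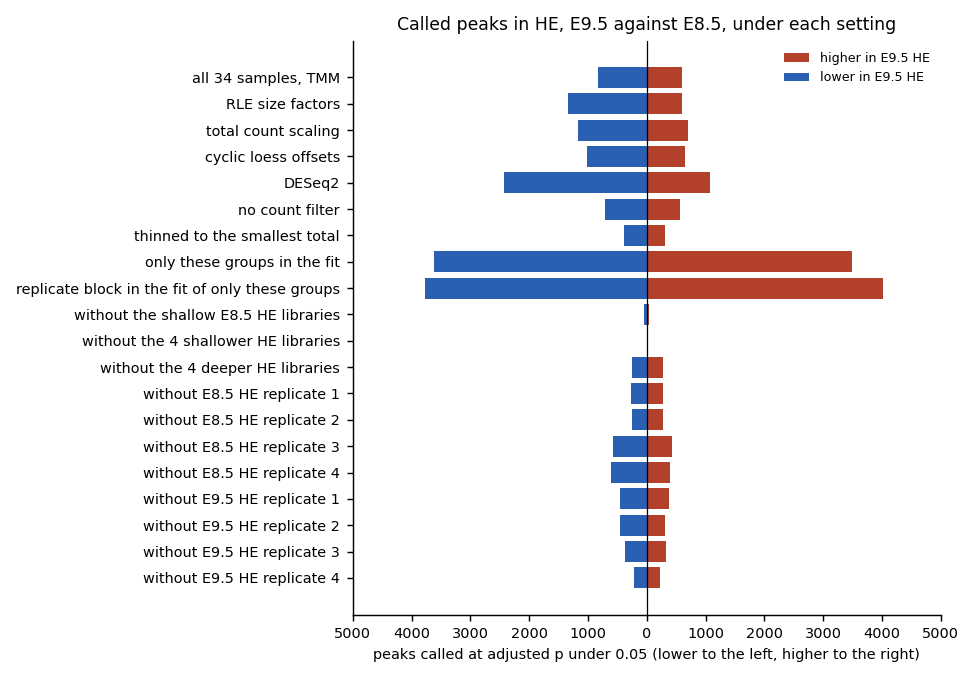
Number of peaks called between E8.5 and E9.5 HE (horizontal axis, peaks at adjusted p under 0.05) under each setting, with lower peaks drawn to the left and higher peaks to the right. The top bar shows the 832 lower and 601 higher peaks; the fits of only the HE groups give the longest bars, and the fit without the 4 shallower libraries has none.

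Genes were assigned to peaks through 95 loci listed by role, each a gene or cluster with 25 kb on both sides. Their mm9 positions come from background knowledge, since the table holds no gene names, and their chromosomes and gene order were the same in the RefSeq annotation. Of 943 tested peaks in these loci 21 rose and 9 fell, 3.18% against 2.13% of all tested peaks, in 23 loci. Called shares also rose with the level of a peak, and the lists were not matched in level to all tested peaks. The split by direction depended on the scaling. There were 18 higher and 17 lower peaks with RLE size factors and 29 and 27 with DESeq2. Total counts gave 20 and 15, and loess 18 and 11. At 4 genes a changed peak lay over the gene start: Bcl11a and Klf2 rose, Tek and Twist1 fell. The 250 bases upstream of these starts (RefSeq, GRCm38.p6, + strand, 5′ to 3′) are shown, with capitals at every match of 6 short motifs on either strand. The peaks are wider than these windows and are given in mm9. Where in a peak the change lies, and whether these bases hold it, is not known.
Bcl11a: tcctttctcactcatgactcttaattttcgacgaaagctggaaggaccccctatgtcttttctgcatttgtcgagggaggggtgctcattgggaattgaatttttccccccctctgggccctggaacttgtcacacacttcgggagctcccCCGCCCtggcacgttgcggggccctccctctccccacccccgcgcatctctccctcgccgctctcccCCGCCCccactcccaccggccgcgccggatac
Klf2: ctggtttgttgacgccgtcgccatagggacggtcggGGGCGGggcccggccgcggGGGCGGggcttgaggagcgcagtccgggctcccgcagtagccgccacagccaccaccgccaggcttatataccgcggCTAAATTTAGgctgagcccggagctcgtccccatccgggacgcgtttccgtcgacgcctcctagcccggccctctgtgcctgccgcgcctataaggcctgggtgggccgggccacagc
Tek: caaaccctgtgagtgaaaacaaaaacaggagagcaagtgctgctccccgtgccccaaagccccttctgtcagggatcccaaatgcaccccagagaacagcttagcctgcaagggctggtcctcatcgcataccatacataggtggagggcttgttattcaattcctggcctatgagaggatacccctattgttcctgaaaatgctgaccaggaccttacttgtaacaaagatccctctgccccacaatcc
Twist1: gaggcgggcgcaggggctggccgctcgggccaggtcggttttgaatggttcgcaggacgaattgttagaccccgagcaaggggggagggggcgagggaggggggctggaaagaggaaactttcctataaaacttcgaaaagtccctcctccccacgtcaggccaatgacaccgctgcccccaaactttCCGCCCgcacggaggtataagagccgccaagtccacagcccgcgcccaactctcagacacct
The motifs searched were GGAAGT for ETS factors, AGATAA for the GATA family, TGTGGT for RUNX, GGGCGG for KLF and SP factors, CAGNTG for E-box proteins, and for MEF2 the letters CTA and TAG with 4 bases between them. No match overlapped another. They occur in 19.7%, 9.99%, 14%, 32.7%, 44.8% and 3.20% of the same window in 32851 RefSeq promoters. Klf2 held 2 GGGCGG matches and 1 MEF2 match, Bcl11a 2 GGGCGG matches and Twist1 1, and the letters of none of the motifs occurred in the Tek window. A match describes the letters, not binding.

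At 17 loci of blood and hemogenic transcription factors, 9 of 181 tested peaks rose and 1 fell. That is 5.52% called, against 2.13% of all tested peaks. The rises were at Runx1, Lyl1, Ikzf1, Meis1, Mllt3 and Bcl11a and the fall at Tal1. Most peaks of the list did not pass the test, and its median log2 fold change was 0.09, or −0.01 with RLE size factors or DESeq2. With RLE size factors 7 of its peaks rose and 3 fell, and with DESeq2 7 and 5.

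Runx1 had 2 rising peaks. The first, chr16:92822150-92822993, 3.7 kb inside the gene, was at 1.2, 2.59, 2.83 and 8.05 CPM in the E8.5 libraries and at 14.4, 23.6, 13.7 and 10.6 CPM at E9.5. The days did not overlap (log2 fold change 1.93, SE 0.44, adjusted p = 0.00812). In EC the same peak had a log2 difference of −0.81 (SE 0.53, adjusted p = 0.342), and the HE change was larger by 2.74 (adjusted p = 0.0246). The level was 50.2 CPM in pro-HSC/HPC and 3.70 CPM in E10.5 HE. The call was lost without E9.5 library 2 (adjusted p = 0.0611).

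The second Runx1 peak, chr16:92801100-92802499, lies 24.5 kb inside the gene, near the distance by which the reporter's +23 enhancer is named. It was at 9.63, 3.89, 6.03 and 11.5 CPM at E8.5 and at 11.4, 19.6, 27.4 and 88.9 CPM at E9.5. Here the days overlapped and E9.5 library 4 stood far above the rest. The log2 fold change of 2.15 (SE 0.61, adjusted p = 0.0434) lost its call without that library (adjusted p = 0.453), without any one of the E8.5 libraries or E9.5 library 3 (0.0606 to 0.142), and with RLE, total-count or loess scaling or DESeq2 (0.0501 to 0.124).

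Tal1, which acts with Lyl1 and Lmo2 in specifying blood, lost accessibility 6.6 kb upstream of its start at chr4:114721885-114722942. The E8.5 libraries read 30.7, 36.9, 37.9 and 41.2 CPM and the E9.5 libraries 14.4, 15.6, 6.85 and 11.8 CPM, without overlap (log2 fold change −1.56, SE 0.35, adjusted p = 0.00738). The level was 6.11 CPM in E10.5 HE and 8.22 CPM in pro-HSC/HPC, and in EC 23.7, 18 and 9.25 CPM on the 3 days. The call held in all 8 fits that left out 1 HE library and was lost when libraries were thinned to 456770 counts (adjusted p = 0.228). Lyl1, a close relative of Tal1, gained a peak 11.5 kb from its start (chr8:87236201-87236805), from 6.02, 0, 3.20 and 4.57 CPM to 13.2, 12.8, 13.7 and 23.9 CPM. The days did not overlap, and the log2 fold change was 2.12 (SE 0.49, adjusted p = 0.00962) in HE and 2.09 (SE 0.66, adjusted p = 0.0279) in EC. The HE call at Lyl1 was lost without E8.5 library 2 (adjusted p = 0.0506) or E9.5 library 4 (0.0674).

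Bcl11a, a zinc-finger repressor best known for silencing fetal globin, had 2 rising peaks at its start. At the peak over the start (chr11:23975940-23978416) the E8.5 libraries read 34.3, 45.4, 49.2 and 46.5 CPM and the E9.5 libraries 109, 93.0, 111 and 103 CPM. The days were widely apart (log2 fold change 1.23, SE 0.23, adjusted p = 8.62e-04), and the call held in all 8 leave-outs. EC rose there too, by 0.86 (log2, SE 0.24, adjusted p = 0.0128). Levels were 137 CPM in E10.5 HE, 116 CPM in pro-HSC/HPC and 83.6 CPM in E10.5 EC. The neighbouring peak inside the gene (chr11:23978852-23982402) rose by 0.79 (SE 0.23, adjusted p = 0.0445), and this call was lost in each of the 8 leave-outs (adjusted p 0.0711 to 0.145).

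The other rising peaks of this list lay within genes and had few counts at E8.5. Mllt3, which maintains self-renewal of blood stem cells, rose at chr4:87469195-87469775 from 4.82, 0, 1.70 and 2.01 CPM to 10.4, 12.4, 10.8 and 7.44 CPM (log2 fold change 2.29, SE 0.55, adjusted p = 0.0123). The days did not overlap, and this call was lost without E8.5 library 2 (0.0613) or 3 (0.0544). Meis1, a homeobox factor of blood stem cells, rose at chr11:18783288-18784038, from 5.15 ± 1.78 to 16.4 ± 3.77 CPM (SD, n = 4). Another Meis1 peak, chr11:18881369-18881810, rose from 1.05 ± 0.456 to 5.85 ± 2.56 CPM. The log2 fold changes were 1.67 and 2.59, and each call rested on several libraries. The first was lost without E8.5 library 2 or 4 or E9.5 library 2, 3 or 4 (adjusted p up to 0.0895), and the second without E8.5 library 1, 2 or 4 or E9.5 library 1, 2 or 4 (up to 0.105). Ikzf1, which encodes the lymphoid factor Ikaros, had a peak (chr11:11607518-11608049) with 0 counts in all E8.5 libraries and 2.01, 0.964, 0.571 and 5.88 CPM at E9.5. That is at least 9.59-fold higher than 3 counts over the E8.5 group. Its call (adjusted p = 0.0407) was lost in every leave-out but that of E9.5 library 2 (0.0506 to 0.179) and with DESeq2 (0.0806).

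No peak was called at Gata2, Gfi1, Gfi1b, Spi1, Myb, Lmo2, Mecom, Hlf, Cebpa or Zfpm1. At the peak with the most counts of each locus, Gata2 stood at 74.2 ± 16.3 and 104 ± 13.3 CPM (SD, n = 4; log2 difference 0.47, adjusted p = 0.388). Gfi1 stood at 18.1 ± 7.56 and 30.5 ± 3.89 CPM (0.76, adjusted p = 0.280). Mecom, a regulator of blood stem cells, stood at 136 ± 6.66 and 82.8 ± 13.5 CPM (−0.72, adjusted p = 0.194). These p-values do not show that the levels were alike.

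**Figure D2:**
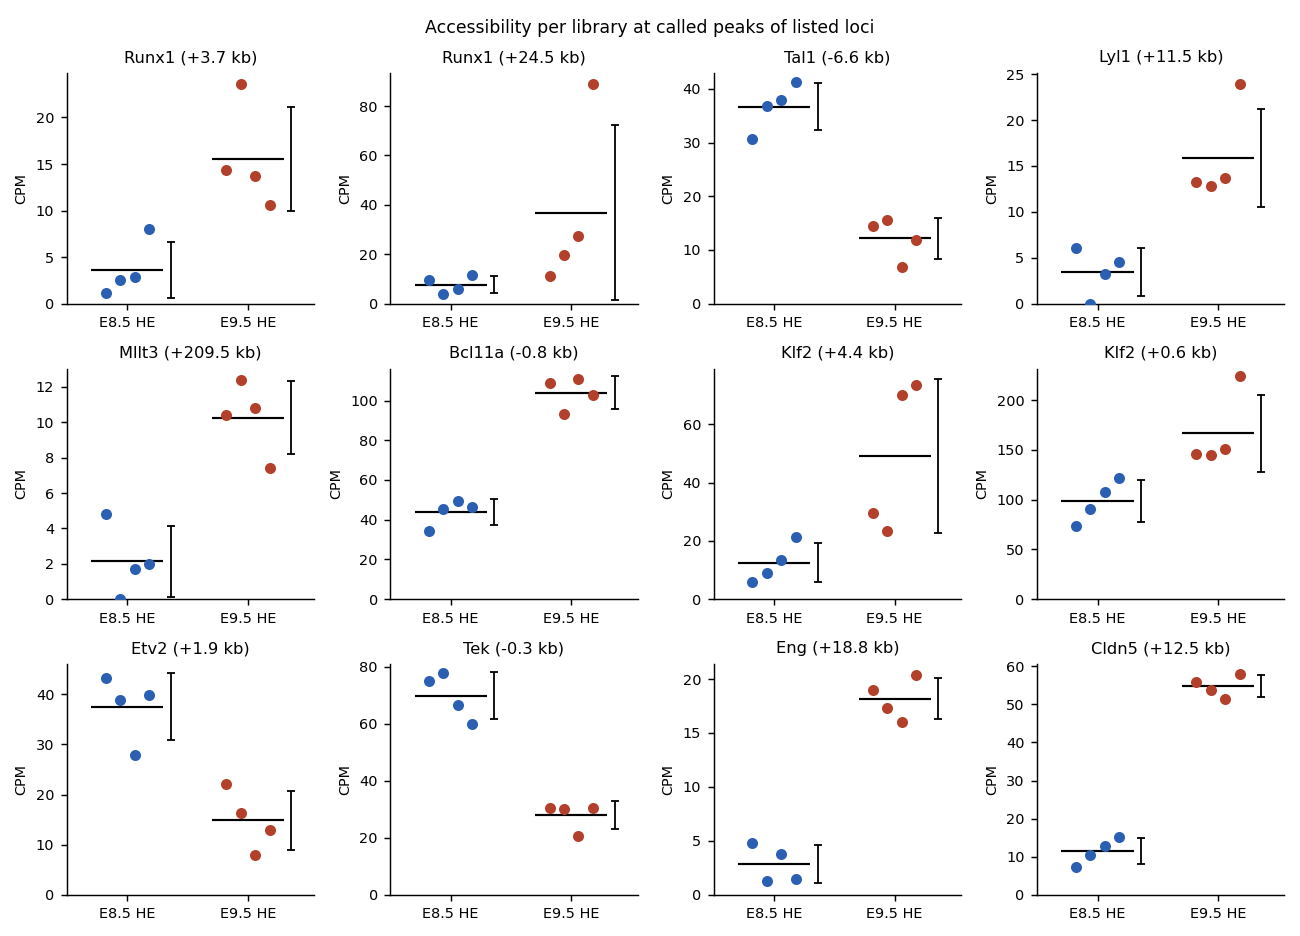
Accessibility in CPM (vertical axes, from 0) of 12 called peaks in each of the 4 E8.5 HE libraries (blue) and the 4 E9.5 HE libraries (red), with the mean as a line and the SD as a bar; titles give the gene and the distance from its start. The days are apart in every panel but that of Runx1 at +24.5 kb, where E9.5 library 4 reaches 88.9 CPM.

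Among 9 endothelial transcription factors Klf2 rose and Etv2 fell, with 2 higher and 1 lower of 89 tested peaks. That is 3.37% called, against 2.13% of all tested peaks. With RLE size factors 2 were higher and 3 lower, and with DESeq2 3 and 5. Klf2, induced in endothelium by flow, rose at its start and downstream of it. At the peak over the start (chr8:74842427-74844544) the E8.5 libraries read 73.4, 90.7, 108 and 122 CPM and the E9.5 libraries 146, 145, 151 and 224 CPM. The log2 fold change was 0.74 (SE 0.21, adjusted p = 0.0433) in HE and 0.82 (SE 0.22, adjusted p = 0.00818) in EC. At chr8:74845663-74849003, 4.4 kb from the start, values went from 6.02, 9.07, 13.4 and 21.4 CPM to 29.5, 23.4, 70.2 and 73.6 CPM (log2 fold change 1.84, SE 0.40, adjusted p = 0.00561). The days did not overlap at either peak, and the 2 shallower E9.5 libraries were the highest at the downstream one. Without E9.5 library 4 neither passed (adjusted p = 0.259 at the start and 0.0582 downstream). The start peak was also lost without E8.5 library 1, 2 or 3 or E9.5 library 1, 2 or 3 (0.0578 to 0.160) and with loess scaling (0.250).

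Etv2, the ETS factor that starts the endothelial and blood program and is then shut off, fell at chr7:31418836-31420351 within the gene. The E8.5 libraries read 43.3, 38.9, 27.9 and 39.9 CPM and the E9.5 libraries 22.0, 16.4, 7.99 and 12.9 CPM, without overlap (log2 fold change −1.28, SE 0.36, adjusted p = 0.0361). EC stood at 36.8 and 19.5 CPM on the same days (adjusted p = 0.0901) and at 13.2 CPM at E10.5. The Etv2 call was lost without E8.5 library 1, 2 or 4 or E9.5 library 2, 3 or 4 (0.0797 to 0.150). Erg, Fli1, Ets1, Sox7, Sox17, Sox18 and Klf4 had no called peak. The peak with the most counts stood at 81.0 ± 10.7 and 82.9 ± 15.3 CPM for Erg and at 146 ± 16.3 and 166 ± 11.7 CPM for Fli1 (SD, n = 4).

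Receptor and junction genes of the endothelium (12 loci) moved both ways, with 3 higher and 2 lower of 149 tested peaks. That is 3.36% called, against 2.13% of all tested peaks. With RLE size factors 3 were higher and 6 lower, and with DESeq2 3 and 9. Tek, the receptor of the angiopoietins, fell at its start (chr4:94404707-94406751), from 75.2, 77.8, 66.7 and 60 CPM to 30.5, 30.2, 20.5 and 30.6 CPM. The days were far apart (log2 fold change −1.30, SE 0.26, adjusted p = 0.00238), and the call held in all 8 leave-outs. A peak 23.6 kb upstream (chr4:94381774-94382933) fell with it, from 40.2 ± 9.17 to 16.3 ± 5.97 CPM (SD, n = 4; log2 fold change −1.25, adjusted p = 0.0189). The upstream call was lost without E8.5 library 1, 2 or 3 or E9.5 library 1, 3 or 4 (0.0502 to 0.101). In EC the start peak was at 50.3 and 31.9 CPM (adjusted p = 0.108) and the upstream peak at 28.5 and 31.9 CPM (adjusted p = 0.820). The difference between the HE and EC changes was not called at either (adjusted p = 0.455 and 0.0936).

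Cldn5, Esam and Eng, which encode the tight-junction protein claudin-5, an endothelial adhesion molecule and a co-receptor for BMP and TGF-beta, each gained 1 peak, and the 3 calls held in all 8 leave-outs. The Cldn5 peak (chr16:18788531-18790060, 12.5 kb from the start) rose from 7.22, 10.4, 12.8 and 15.2 CPM to 56.0, 53.8, 51.3 and 58.0 CPM (log2 fold change 2.21, SE 0.34, adjusted p = 6.61e-05). The Esam peak (chr9:37361668-37362414, outside the gene) rose from 2.41, 2.59, 2.64 and 2.74 CPM to 14.8, 15.9, 22.8 and 10.2 CPM (2.57, SE 0.51, adjusted p = 0.00164). The Eng peak (chr2:32520469-32521185, within the gene) rose from 4.82, 1.30, 3.77 and 1.46 CPM to 19.0, 17.3, 16 and 20.4 CPM (2.69, SE 0.46, adjusted p = 2.41e-04). In none of the 3 did the days overlap. Levels in other groups differed among them: Esam's peak was at 1.32 CPM in E9.5 EC, 4.58 CPM in E10.5 HE and 59.4 CPM in pro-HSC/HPC. Its HE change exceeded that of EC by 3.54 (adjusted p = 0.0113). Eng's peak rose in EC as well, by 3.75 (SE 0.66, adjusted p = 9.99e-05), and was at 35.2 CPM in E10.5 HE and 4.25 CPM in pro-HSC/HPC. Thinning ended the Eng call (adjusted p = 0.130). Cdh5, Pecam1, Kdr, Tie1, Flt1, Flt4, Emcn and S1pr1 had no called peak; Cdh5, the gene of VE-cadherin, stood at 178 ± 32.2 and 201 ± 16.6 CPM (SD, n = 4).

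Signalling loci held 2 called peaks. Of 134 tested peaks at 15 Notch, arterial and venous loci, 1 rose (0.746% called, against 2.13% of all tested peaks), and the list's median log2 fold change was 0.19. That peak, chr17:34740126-34741952, lies in the window of Notch4, a receptor of arterial endothelium, 40.0 kb from its start. Genes outside the lists were not considered, so whether the peak belongs to Notch4 or to another gene is not known. It read 136, 127, 179 and 160 CPM at E8.5 and 239, 252, 285 and 362 CPM at E9.5, without overlap. It rose by 0.91 (SE 0.23, adjusted p = 0.0189) in HE and by 0.90 (SE 0.23, adjusted p = 0.00664) in EC. The HE call was lost without E8.5 library 1 or 2 or E9.5 library 4 (0.0649 to 0.120) and with loess scaling (0.0685). The Notch targets Hes1, Hey1 and Hey2 had no call. Their levels at E8.5 and E9.5 were 191 ± 69.0 and 310 ± 21.1 CPM, 228 ± 54.1 and 356 ± 16.4 CPM, and 129 ± 16.3 and 201 ± 46.2 CPM (SD, n = 4; adjusted p = 0.119, 0.117 and 0.0809).

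At 5 loci of BMP response genes the median log2 fold change of 51 tested peaks was 0.46, and between 0.36 and 0.41 under the other scalings and DESeq2. Of these peaks 1 rose (1.96% called, near the 2.13% of all tested peaks), at Smad7, an inhibitor of BMP and TGF-beta signalling: chr18:75546890-75547523 went from 4.07 ± 1.53 to 12.8 ± 3.01 CPM (SD, n = 4; log2 fold change 1.58, adjusted p = 0.0445). It rose in EC as well, by 1.93 (SE 0.56, adjusted p = 0.0166). The HE call at Smad7 was lost in every one of the 8 leave-outs (0.0503 to 0.155). The BMP targets Id1, Id2, Id3 and Smad6 had log2 differences of 0.57, 0.46, 0.74 and 0.69 at the peak with the most counts and no call.

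Surface markers of emerging blood showed 1 change in 35 tested peaks (2.86% called, near the 2.13% of all tested peaks). Cd44, an adhesion receptor, rose at chr2:102713872-102714556 from 1.2, 4.54, 6.79 and 6.04 CPM to 11.1, 27.1, 12.6 and 13.3 CPM, without overlap (log2 fold change 1.69, SE 0.43, adjusted p = 0.0194). This call was lost without E8.5 library 1 (0.0960) or 2 (0.0578) or E9.5 library 2 (0.151). Kit and Itga2b, the genes of CD117 and CD41, had no call, at 34.7 ± 7.49 and 32.2 ± 6.27 CPM and at 30.6 ± 13.7 and 47.4 ± 3.40 CPM (SD, n = 4). Ptprc, the gene of CD45, had none either.

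In the 4 Hox clusters, which set position along the body axis, 1 of 122 tested peaks rose and 1 fell. That is 1.64% called, near the 2.13% of all tested peaks. The rise was in Hoxa (chr6:52110601-52111526, log2 fold change 1.72, adjusted p = 0.0266) and the fall in the window of Hoxc (chr15:102864615-102865902, −1.67, adjusted p = 0.0488). The Hoxc call was lost in all 8 leave-outs (0.0517 to 0.200) and the Hoxa call without E8.5 library 1 or 2 or E9.5 library 1, 3 or 4 (0.0506 to 0.108).

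Among 7 genes of developmental timing and the early embryo, Hmga2 rose and Lin28b fell, with 2 higher and 1 lower of 65 tested peaks. That is 4.62% called, against 2.13% of all tested peaks. Lin28b blocks the let-7 microRNAs, which repress Hmga2. The 2 Hmga2 peaks lie within the gene, 29.7 and 55.3 kb from its start. The first (chr10:119883270-119884259) went from 0, 0, 2.26 and 3.29 CPM to 10.1, 15.6, 10.3 and 12.9 CPM (log2 fold change 2.70, SE 0.52, adjusted p = 0.00117). The second (chr10:119857992-119858396) went from 1.2, 0, 2.26 and 0.732 CPM to 8.34, 9.80, 8.56 and 9.79 CPM (2.88, SE 0.58, adjusted p = 0.00246). At both the days did not overlap, and both calls held in all 8 leave-outs. The Lin28b peak (chr10:45165742-45166667), 24.3 kb inside the gene, went from 39.1, 38.9, 42.8 and 30.9 CPM to 18.8, 14.8, 13.7 and 5.48 CPM (−1.49, SE 0.40, adjusted p = 0.0279). It stood at 4.95 CPM in E10.5 HE and 6.44 CPM in pro-HSC/HPC. Its call was lost without E8.5 library 1, 2 or 3 or E9.5 library 2, 3 or 4 (0.0630 to 0.173).

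**Figure D3:**
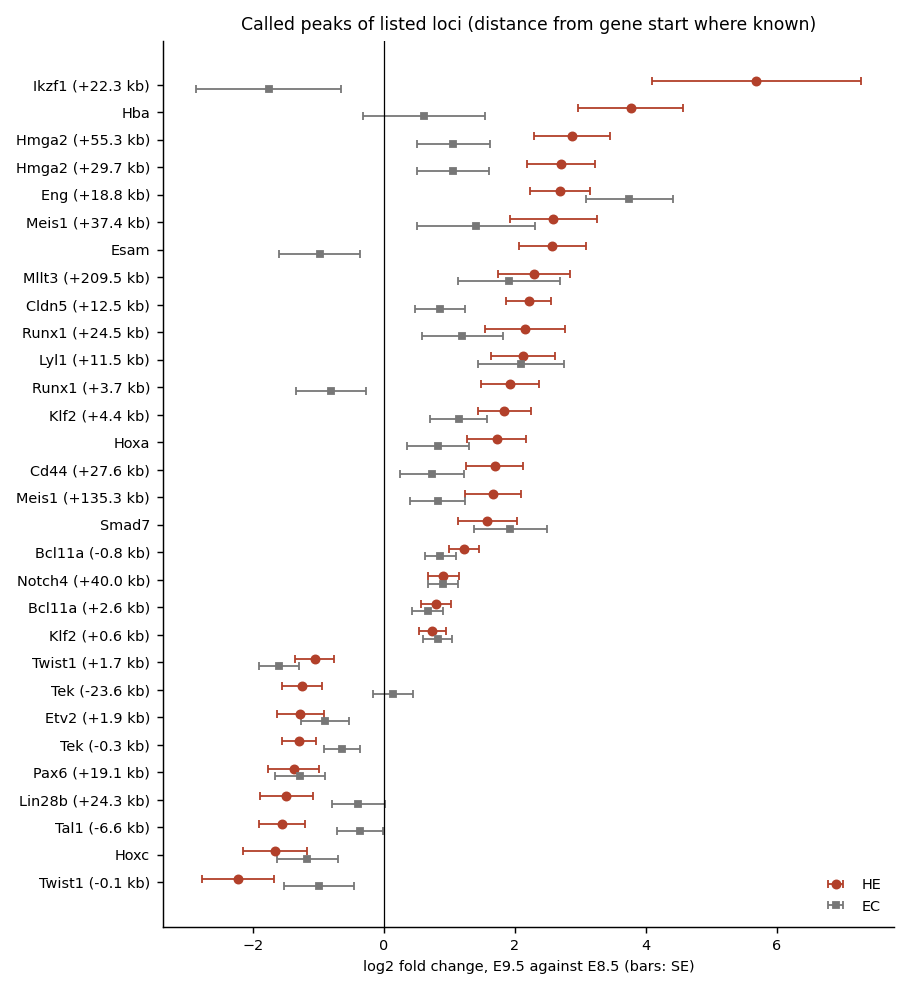
Log2 fold change from E8.5 to E9.5 (horizontal axis, bars are SE) in HE (red circles) and EC (grey squares) at the 30 called peaks of listed loci, with the distance from the gene's start where it is known. The HE values run from −2.23 at Twist1 to 5.69 at Ikzf1, which had 0 counts at E8.5; EC values lie on the other side of 0 at Ikzf1, Esam, Runx1 (+3.7 kb) and Tek (−23.6 kb).

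Of the 30 called peaks at listed loci, 9 kept their call in all 8 leave-outs of 1 HE library: those of Tal1, Eng, Esam and Cldn5, the start peaks of Tek and Bcl11a, both of Hmga2, and 1 at Hba. Without both shallow E8.5 libraries 2 passed (Eng and Cldn5), within the 4 shallower libraries 9, and within the 4 deeper libraries 0.

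Peaks were called at 3 loci that mark other cell types. The lists hold few tested peaks, so their shares rest on 1 or 2 calls, beside the 2.13% called of all tested peaks. A peak near the alpha-globin genes Hba (chr11:32165170-32165593) rose from 0, 0, 0.188 and 0.732 CPM to 4.89, 8.03, 2.85 and 3.92 CPM, without overlap (log2 fold change 3.77, SE 0.80, adjusted p = 0.00408). At 4 erythroid loci 1 of 23 tested peaks rose (4.35% called). Summed over every peak of the table in these loci, the level was 202 to 252 CPM at E8.5 and 219 to 324 CPM at E9.5. Twist1, a factor of mesenchyme, had 3 peaks in the table, and both that were tested fell. Both lie at its start, and the positions used do not settle which of them covers it. The narrower peak (chr12:34640734-34641142) read 16.9, 16.2, 17.2 and 17.2 CPM and then 4.75, 2.89, 2.28 and 3.92 CPM (−2.23, SE 0.55, adjusted p = 0.0169). Its call was lost without E9.5 library 2, 3 or 4 (0.0616 to 0.0654). The wider peak (chr12:34641483-34643963) fell in EC too, and its HE call (adjusted p = 0.0437) was lost in all 8 leave-outs (0.0645 to 0.166). A peak of Pax6 (chr2:105527505-105528756), a neural factor, fell from 15.2 ± 7.32 to 5.53 ± 1.42 CPM (SD, n = 4; adjusted p = 0.0394). The Pax6 call was lost in every leave-out but that of E8.5 library 3 (0.0671 to 0.265).

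Summed over every peak of the table, tested or not, the 5 somite and mesenchyme loci held 273 to 330 CPM at E8.5 and 268 to 307 CPM at E9.5. Of their 34 tested peaks 2 fell (5.88% called), and with DESeq2 3 rose and 2 fell. The 3 neural loci held 94.1 to 123 and 59.1 to 110 CPM. Of their 17 tested peaks 1 fell (5.88% called), and none was called with loess scaling. No peak was called at the 6 heart loci (343 to 394 and 337 to 409 CPM), the 3 myeloid loci (131 to 180 and 107 to 137 CPM) or the 3 epithelial loci (130 to 155 and 144 to 165 CPM). The 3 defining hemogenic loci, Runx1, Gfi1 and Gata2, held 246 to 342 and 364 to 551 CPM, the +24.5 kb peak included. The 6 defining endothelial loci held 1480 to 1897 and 1251 to 1796 CPM. Signal was thus present at hemogenic and endothelial loci on both days and also at loci of the other cell types, whose part in the results was not tested.

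The 10 leading peaks in each direction kept their calls in all 8 leave-outs. They are the called peaks of smallest adjusted p with a log2 change of at least 1 and no overlap of libraries, and only that of Cldn5 lay in a listed locus. Of the 10 leading peaks that rose, 4 were also called in EC, against 11.1% of all tested peaks in either direction. Peaks not called in EC may still have changed there. The rises in HE were 1.87 to 2.99 (log2). First was chr10:105197187-105198064, with 3.01, 3.89, 5.09 and 6.59 CPM at E8.5 and 25.5, 47.4, 39.9 and 38.4 CPM at E9.5 (log2 fold change 2.91, SE 0.42, adjusted p = 2.36e-05). It stood at 45.0 CPM in E10.5 HE and 39.1 CPM in pro-HSC/HPC, and EC at 4.54, 6.54 and 8.35 CPM over the 3 days. The HE change exceeded that of EC by 2.56 (adjusted p = 0.0239).

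At chr1:88366722-88368175, in contrast, HE went from 3.61, 6.48, 11.3 and 5.85 CPM to 32.8, 31.0, 42.2 and 62.7 CPM and EC from 4.20 to 23.5 CPM. Their log2 fold changes were 2.53 and 2.47 (difference 0.05, SE 0.65, adjusted p = 0.988). At chr12:12503086-12504471 HE rose from 1.2, 2.59, 8.29 and 4.76 CPM to 30.2, 49.9, 30.8 and 44.7 CPM. There E10.5 HE was at 11.1 CPM, pro-HSC/HPC at 118 CPM and E9.5 EC at 3.00 CPM, so that the mean of E9.5 HE, 38.9 CPM, lay between those of EC and pro-HSC/HPC.

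The leading peaks that fell had log2 fold changes of −4.13 to −1.82, and 5 of the 10 were also called in EC. At chr10:111031592-111033274 the E8.5 libraries read 57.8, 59.0, 48.1 and 44.1 CPM and the E9.5 libraries 6.91, 8.03, 9.13 and 7.05 CPM (−2.75, SE 0.38, adjusted p = 8.89e-06). EC fell there from 87.9 to 14.7 CPM. At chr1:67368314-67369071 HE went from 62.0, 59.6, 24.3 and 23.8 CPM to 3.16, 4.01, 3.42 and 2.35 CPM, with the 2 shallow E8.5 libraries well above the other 2. The log2 fold change was −3.64 (SE 0.50, adjusted p = 8.89e-06), and EC, at 19.3 and 14.3 CPM, differed from it (difference −3.22, adjusted p = 0.00522). At chr9:115574048-115575371 HE went from 102 ± 0.977 to 28.7 ± 3.80 CPM (SD, n = 4; −1.82, SE 0.27, adjusted p = 3.21e-05). EC stood at 41.1 and 55.0 CPM there, and the difference between the changes was −2.23 (adjusted p = 5.32e-04).

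Changed peaks also lay in runs, defined as called peaks of 1 direction at most 50 kb apart. Rising peaks formed 37 runs of 2 peaks each (74 of the 601 peaks), and falling peaks 51 runs of up to 5 peaks (118 of the 832). How many runs the spacing of all tested peaks would give was not tested. The run with the most peaks, 5 falling ones of 8 tested over chr12:118688400-118743592, summed to 308, 296, 249 and 246 CPM in the E8.5 libraries and to 106, 133, 78.7 and 82.3 CPM at E9.5. A run of 4 falling peaks, of 8 tested, at chr19:36282229-36365933 went from 194, 214, 156 and 153 CPM to 55.2, 65.8, 50.2 and 41.5 CPM. Another 4, of 10 tested, lay at chr6:133947522-133998744, around the start of Etv6, an ETS repressor needed by blood stem cells, and went from 161, 172, 198 and 198 CPM to 94.5, 105, 61.0 and 68.2 CPM. These sums cover only peaks called for falling, so that their separation between days is set by that choice. Peaks in each of them lost their calls in leave-outs, and at Etv6 all 4 did, with adjusted p up to 0.191 (without E9.5 library 4 at the first peak). In EC no Etv6 peak of the run was called, with log2 values of 0.09 to 0.70. Among rising runs, 1 lay in Itgb3, the integrin beta-3 gene: chr11:104525154-104526042 went from 1.81, 5.83, 3.96 and 1.46 CPM to 16.7, 22.8, 21.7 and 24.7 CPM (2.77, SE 0.53, adjusted p = 0.00113). Its partner, chr11:104475039-104475877, went from 0.601 ± 0.551 to 6.34 ± 2.04 CPM (SD, n = 4; adjusted p = 0.00573). Etv6 and Itgb3 were named after their values were seen.

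The same comparison in EC shares no library with that in HE, but depth had the same layout by library number. E8.5 EC libraries 1 and 2 had 1247435 and 1004036 counts in peaks, and libraries 3 and 4 had 2666067 and 2788837. At E9.5, EC libraries 1 and 2 had 7283508 and 5954937, and libraries 3 and 4 had 1170513 and 3179759. The part of depth in what HE and EC share was not tested. There 4367 peaks rose (6.51%) and 3061 fell (4.56%), 11.1% of those tested against 2.13% in HE; whether the numbers of changed peaks differ was not tested. With total-count scaling 37.6% of the EC calls were higher against 58.8%, and that scaling moved the EC median of all tested peaks by −0.23. Leaving out single EC libraries gave 4688 to 6847 EC calls, with 4688 without E8.5 EC library 2 and 4716 without library 1. Most HE changes had the same sign in EC: 80.4% of the 601 rising and 77.3% of the 832 falling peaks, against 61.1% of all tested peaks. Pearson's r between the HE and EC log2 fold changes across peaks was 0.62 over the 1433 called peaks and 0.29 over all tested peaks. Peaks are not independent replicates, and choosing them by their HE change can by itself raise r. Of the rising HE peaks 187 were called higher in EC (31.1% of HE rises, 4.28% of EC rises) and 4 lower. Of the falling peaks 247 were called lower in EC (29.7% of HE falls, 8.07% of EC falls) and 20 higher.

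A test of the difference between the HE and EC changes called 1003 peaks (1.49%), 189 with a higher (0.282%) and 814 with a lower HE change (1.21%). Of the HE rises 54 were larger than in EC, and of the HE falls 113 went lower than in EC. In the 113, the median level went from 49.8 to 18.6 CPM in HE and from 30.2 to 45.6 CPM in EC. These HE and EC values also chose the peaks, so the contrast between these medians is in part set by that choice. At chr13:107549996-107551791, for example, HE fell from 145, 123, 93.5 and 86.4 CPM to 33.9, 48.2, 47.9 and 34.9 CPM, and EC rose from 75.5 to 132 CPM (adjusted p = 0.0306). The difference was −2.24 (SE 0.37, adjusted p = 4.38e-04). At chr5:64546786-64548009 HE fell from 99.9, 75.2, 86.7 and 77.9 CPM to 41.3, 38.5, 36.5 and 38.4 CPM, and EC rose from 46.5 to 91.1 CPM (adjusted p = 0.00593). The days did not overlap in HE at either peak.

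In the 54, chosen by HE and EC values in the same way, the median went from 2.21 to 11.3 CPM in HE and from 4.06 to 2.06 CPM in EC. The partner peak of the Itgb3 run had a difference of 5.90 (adjusted p = 0.00311), with EC at 2.93 and then 0.633 CPM. At chr3:58858802-58859451 HE went from 2.41, 0, 1.13 and 0.732 CPM to 5.90, 6.10, 10.3 and 7.05 CPM. Pro-HSC/HPC stood there at 24.4 CPM, E10.5 HE at 2.57 CPM and E9.5 EC at 0.638 CPM. The 5 differences named by smallest adjusted p in each direction kept their calls in every leave-out of 1 HE or EC library. Without both shallow E8.5 HE libraries 314 differences were called, those 10 among them, within the shallower HE libraries 188 and within the deeper ones 1. Leaving out single libraries gave 437 (without E8.5 EC library 2) to 1088 differences, with 484 without E8.5 EC library 1, 467 and 530 without E9.5 HE libraries 4 and 3, 563 and 630 without E8.5 HE libraries 2 and 1, and 665 and 627 without E9.5 EC libraries 1 and 2.

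**Figure D4:**
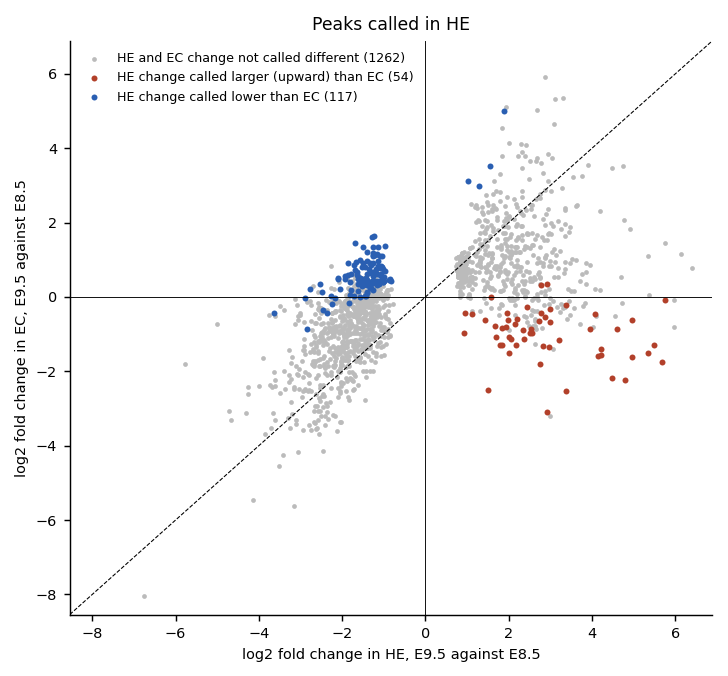
Log2 fold change from E8.5 to E9.5 in EC (vertical axis) against HE (horizontal axis) for the 1433 peaks called in HE, each point a peak, with equality as a dashed line. Red points (54) and blue points (117, of which 113 fell in HE) are peaks whose HE and EC changes were called different; most of the other 1262 lie where both signs are the same.

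Levels in the other groups were read at the same peaks as a description, since E8.5 and E9.5 HE values chose the peaks. EC values of those days also chose the 54 and the 187 named below. The rising peaks had a median of 17.4 CPM in E10.5 HE, 15.2 CPM in E9.5 pro-HSC/HPC, 16.6 CPM in pre-HSC I and 9.44 CPM in pre-HSC II, beside the 16.7 CPM of E9.5 HE. In EC they stood at 3.41, 6.24 and 10.7 CPM on the 3 days. The falling peaks had 5.55 CPM in E10.5 HE, 6.61 CPM in pro-HSC/HPC, 5.87 CPM in pre-HSC I and 5.40 CPM in pre-HSC II, and 22.1, 13.0 and 8.44 CPM in EC over the 3 days. Over all tested peaks the group medians lay between 4.96 and 5.82 CPM. The 54 rises larger than in EC stood at 13.1 CPM in pro-HSC/HPC and 3.83 CPM in E10.5 EC, and the 187 shared with EC at 22.7 and 33.9 CPM. Pre-HSC II libraries 1, 2 and 3 were the shallowest of the series, with 456770, 668956 and 701221 counts, and library 4 had 1241216.

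**Figure D5:**
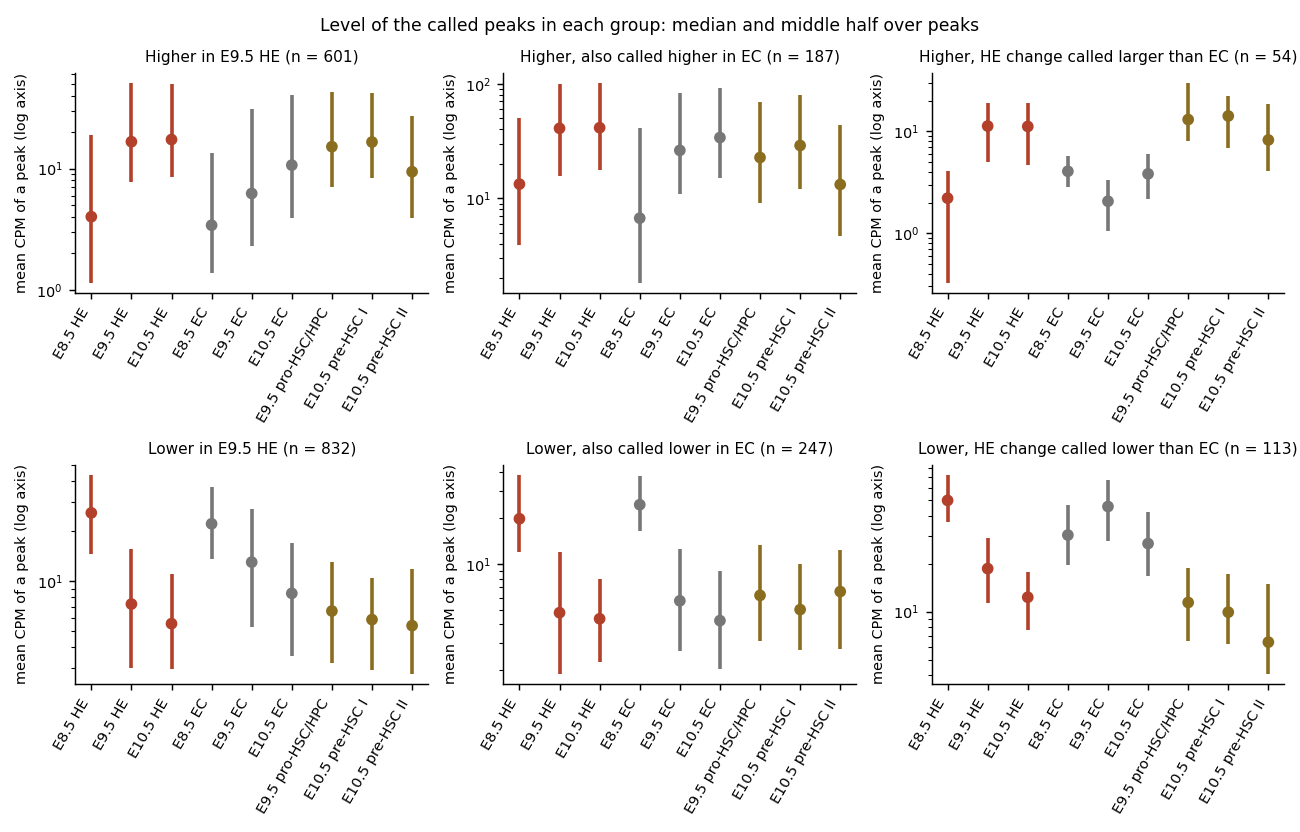
Mean CPM of called peaks in each group (vertical axes, logarithmic), with the median over peaks as a point and the range between the quartiles of the peaks as a bar; HE groups are red, EC groups grey and stem and progenitor groups brown. The top row holds rising and the bottom row falling peaks: all (601 and 832), those also called in EC in the same direction (187 and 247), and those whose HE change was called larger or lower than in EC (54 and 113).

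Counts were also concentrated in fewer peaks at E9.5. The share of counts in the highest 10% of peaks was 52.2%, 52.5%, 55.8% and 55.3% in the E8.5 libraries and 58.2%, 57.0%, 59.5% and 62.0% in the E9.5 libraries. Peaks of 2 kb or wider held 18.4%, 18.6%, 21.4% and 21.3% and then 22.7%, 21.6%, 23.0% and 24.1%. The days did not overlap in either measure (exact two-sided permutation test, p = 0.0286 for each, the smallest that 4 against 4 libraries can give, and 0.0429 adjusted over the 3 values tested). The share on chromosome X, the third value, overlapped between days and did not pass, at 2.46% ± 0.0331 and 2.50% ± 0.157 (SD, n = 4). Without 1 peak at Pgk1, which held 9126 counts in E9.5 library 4, these shares were 2.45% ± 0.0327 and 2.40% ± 0.0343, so that the direction turned (difference −0.0475 points, exact permutation p = 0.114). Leaving out E8.5 library 1 or 2 or E9.5 library 4 raised the exact permutation p to 0.0571 for the highest 10%, and leaving out E8.5 library 1 or 2 or any E9.5 library raised that for wide peaks to between 0.0571 and 0.114. The 2 shallow libraries had the lowest values at E8.5 and the highest at E9.5 in both measures.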

How the data were processed

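Raw read counts per peak for 35 libraries, deposited by the authors as 1 table in mm9, were used as they stand; the sources used here do not say whether starts count from 0 or 1. The submitters' processing notes name, with no role or order, DiffBind 1.14.6, MACS2 2.0.1, Bowtie 1.0.0, bedtools 2.17.0, Trim Galore 0.3.1, deepTools and SAMtools. Of counts between 10 and 49, 54.1% to 71.6% were even in the HE libraries, so counts may not be independent fragments. All groups were fitted together in edgeR 4.0.16 (R 4.3.3; quasi-likelihood test, TMM, low counts filtered by group, 67131 peaks kept and 8887 removed), with 9 group means and 34 samples. The pre-HSC I libraries numbered 2 and 3 differed by less than counting noise, so their mean was used as 1 sample. Changed means an adjusted p under 0.05. The code was tested on simulated data. Alternatives used DESeq2 1.42.0 and limma 3.58.1 (loess), and levels and figures matplotlib 3.10.9, scipy 1.17.1, pandas 2.3.3 and numpy 2.4.6 in Python 3.11.15.

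Named were the 10 leading peaks in each direction, 5 runs in each direction, the 5 peaks of smallest adjusted p in each direction among HE calls whose change differed from EC, and up to 3 called peaks in each listed locus, or the peak with the most counts where none was called; the text describes some of them. The members, loci and lists were chosen with earlier results of these data known, and the loci Etv6, Itgb3, Pgk1 and Adora2a were added after values were seen. An interval for counts is not given; 3 counts correspond to 0.405 to 2.00 CPM in the HE libraries.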

Additional observations from a re-analysis of the deposited data

Results flagged for a closer look

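Groups of 4 HE libraries were examined on each day for the 156 named peaks and for the 3 shares of counts, 318 groups in all. In 20 of them, each at a named peak, 1 library stood apart from the other 3 by Dixon's test at the 95% level, and chance gives about 1 in 20. At E9.5, library 4 stood apart at Lyl1 (23.9 CPM, others 12.8 to 13.7), the Klf2 start (224 CPM, others 145 to 151), Hand1 (7.83 CPM, others 3.53 to 4.17) and Pgk1 (3574 CPM, others 125 to 606). Library 3 did so at the Tek start (20.5 CPM), Igf2bp1 (60.5 CPM), Sox2 (22.8 CPM), chr3:127942807-127943475 (19.4 CPM) and chr10:74826194-74828242 (98.7 CPM), and library 2 at Cd44 (27.1 CPM) and Sox1 (5.14 CPM). At E8.5, library 1 stood apart at the second Bcl11a peak (24.7 CPM) and Id2 (54.2 CPM), and library 2 at Tcf15 (7.78 CPM) and chr5:151825498-151826608 (81.0 CPM). Library 3 did so at Flt4 (54.3 CPM), Hand2 (34.5 CPM), chr15:25839597-25840426 (3.39 CPM) and chr10:98709797-98711035 (7.16 CPM), and library 4 at the weaker Meis1 peak (0.366 CPM).

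The change from E8.5 to E9.5 differed between HE and EC at 1003 peaks by edgeR's test of the difference. Among those also called in HE, the named differences (HE minus EC, log2) that were higher in HE were 5.90 at chr11:104475039-104475877 in Itgb3, 4.00 at chr7:133764688-133765548, 4.55 at both chr3:58858802-58859451 and chr3:127942807-127943475, and 1.89 at chr3:85690611-85692722. The named lower ones were −2.10 at chr10:74826194-74828242, −2.24 at chr13:107549996-107551791, −2.09 at chr5:64546786-64548009, −2.90 at chr2:114637729-114639147 and −2.59 at chr3:65664923-65665860. At chr10:74826194-74828242 both HE and EC rose, EC by more.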

How the results depend on the processing

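No peak called in HE turned its sign in any setting run. Of the peaks called in EC, 16 did with loess scaling and 6 when thinned, and of the called differences between HE and EC 1 did without the 4 deeper HE libraries. HE calls, 1433 in all (601 higher, 832 lower), numbered 3497 (1066, 2431) with DESeq2, 691 (301, 390) when thinned to 456770 counts, 7106 (3487, 3619) with only the 8 HE libraries fitted, 94 (43, 51) without the shallow E8.5 HE libraries, 0 (0, 0) without the 4 shallower and 519 (273, 246) without the 4 deeper HE libraries. RLE size factors gave 1348 lower peaks. Leaving out 1 HE library gave 430 to 1006 calls (218 to 432 higher, 212 to 601 lower). EC calls (7428) numbered 2706 thinned, 12054 with only the 8 EC libraries fitted, and 4688 to 6847 in leave-outs. Calls for the difference between HE and EC (1003) numbered 2553 with DESeq2, 278 thinned, 4287 with only the 16 HE and EC libraries fitted, 314 without the shallow E8.5 HE libraries, 1 without the 4 shallower and 188 without the 4 deeper HE libraries, and 437 to 1088 in leave-outs. The difference in the share of counts in the highest 10% of peaks (5.2 points) was 4.26 to 5.93 in leave-outs, with p = 0.0571 in the exact permutation test without E8.5 library 1 or 2 or E9.5 library 4; that in wide peaks (2.93 points) was 2.42 to 3.41. Of the 30 called peaks at listed loci 27 kept their call or were not tested with RLE size factors, 27 with total counts, 24 with loess, 28 with DESeq2, 25 with no count filter and 20 when thinned. The cause of these shifts was not tested, though leave-outs have fewer samples and thinning leaves fewer peaks tested. The fits without deeper or shallower libraries, and the EC leave-outs for the EC calls, were chosen after seeing the data.

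With the replicate number as a block there were 7783 HE calls (4019 higher, 3764 lower) and 3433 differences between HE and EC, against 7106 and 4287 in the same groups without the block. The deviations of same-numbered HE libraries correlated at 0.03, 0.01, −0.02 and 0.06, and only numbers 1 and 4 correlated best with their own number. Depth ran in opposite order by number on the 2 days. These values show no clear pairing by number, and whether the numbers pair the samples is not known. Depth limits low peaks, since 3 counts are up to 2.00 CPM in the shallowest HE library.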

Other observations

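Called peaks were not spread evenly over peak widths. Peaks under 300 bp rose in 0.323% and fell in 0.0924% of 10828 tested, and peaks of 1000 to 2000 bp rose in 1.25% and fell in 2.52% of 11563. Peaks of 2 kb or wider rose in 2.04% and fell in 1.27% of 2207. By level, the 16783 peaks with the lowest mean CPM held 86 rising and 10 falling peaks and the 16783 with the highest 243 and 470. Rising peaks were most frequent on chromosome 19 (1.77% of 1695) and falling peaks on chromosome 10 (1.83% of 3984), and no test of these shares was made.

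A peak at the start of Pgk1, a housekeeping gene of glycolysis on the X chromosome (chrX:103380576-103383382), read 110, 139, 135 and 158 CPM at E8.5 and 169, 125, 606 and 3574 CPM at E9.5. It was called (log2 fold change 3.04, adjusted p = 0.00681), and not without E9.5 library 4 (adjusted p = 0.481). E9.5 EC averaged 2147 CPM there. The cause was not tested.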
